A study of Mus musculus with 16 samples.

Results

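U3 is the box C/D small nucleolar RNA (snoRNA) on which the early steps of ribosome assembly depend. The rows of the table named Rnu3 or Rnu73 were taken, 6 of 18488 rows (Rnu3a, Rnu3b1, Rnu3b2, Rnu3b3, Rnu3b4 and Rnu73b). The 4 Rnu3b rows held identical values in every library and were counted once, here as the Rnu3b row, which left 3 distinct rows of 15893 distinct rows in all. Small non-coding RNA was sequenced from the prefrontal cortex of 8 PS19+/- mice, called PS19, and 8 WT littermates on the same mixed B6;C3 background, with equal numbers of males and females in each group. PS19 mice are heterozygous for a human MAPT transgene with the P301S tau mutation, driven by the mouse prion promoter (Prnp), so that both groups keep the mouse tau gene and only PS19 mice carry the human one. All mice were of about the same age, a single time point that the study describes as advanced tauopathy in this model. The question was whether the genotypes differed in the abundance of these RNAs.

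U3 differs from most box C/D snoRNAs in that it does not guide a chemical modification. Its 5′ part pairs with the ribosomal RNA precursor and, within a large nucleolar particle, positions it for the cuts that release the small-subunit rRNA. In most members of the family, box C and box D are the short motifs that bind the core proteins and protect the RNA from decay. Most other box C/D snoRNAs lie in introns of host genes and guide methylation of rRNA, and U73 belongs to that group.

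The sequences show which of these rows can be told apart by a short read, and they are given first. Under GENCODE M21 (GRCm38), Rnu3b1 lies at chr11:87443237-87443451, Rnu3b3 at chr11:87448627-87448841, Rnu3b4 at chr11:87462286-87462500 and Rnu3b2 at chr11:87471368-87471582. All 4 are on the plus strand, in introns of Tex14, a gene of male germ cells, within 28.3 kb. They hold the same 215 bases. Rnu3a lies alone at chr10:40258467-40258679 on the plus strand, outside other annotated genes, with 213 bases. In Rnu3b1 the capitals mark the TGATGA of box C, which starts at base 157, and the CTGA of box D, which starts at base 207. In Rnu3a they mark the bases that differ from Rnu3b1.
Rnu3b1: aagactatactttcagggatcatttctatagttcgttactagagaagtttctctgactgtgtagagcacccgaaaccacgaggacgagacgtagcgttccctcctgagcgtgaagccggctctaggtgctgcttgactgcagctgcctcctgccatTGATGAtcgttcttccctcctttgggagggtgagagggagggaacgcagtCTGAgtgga
Rnu3a: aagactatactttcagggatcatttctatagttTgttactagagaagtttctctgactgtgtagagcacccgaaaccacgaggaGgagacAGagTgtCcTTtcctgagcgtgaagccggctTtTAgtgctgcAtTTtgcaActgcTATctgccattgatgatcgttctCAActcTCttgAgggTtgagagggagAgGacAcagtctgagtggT
Rnu3a matched Rnu3b1 at 85.6% of aligned bases, with 29 substitutions and 2 gap bases. Counted from the 5′ end of Rnu3b1, bases 1 to 33 and 35 to 84 were the same in both, with C34T between them, and both keep box C and box D. The first 71 bases, which hold the part that pairs with the rRNA precursor, carried 1 of the substitutions, and the middle 72 and last 72 bases carried 14 each. A read from the first 33 bases therefore cannot be placed on Rnu3a or Rnu3b by its sequence.

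Rnu73b is not a form of U3. Its sequence at chr3:86140618-86140688, minus strand, has 71 bases in an intron of Rps3a1, a ribosomal protein gene, and RefSeq names it Snord73b. The longest run it shares with Rnu3b1 or Rnu3a on either strand is 7 bases. Its capitals mark the same TGATGA and CTGA letters, near its ends, as is usual for a methylation guide. The related Snord73a (U73a) lies at chr3:86138791-86138858 in the same host gene. It was chosen for comparison after its values were seen, and its capitals mark the bases that differ from Rnu73b.
Rnu73b: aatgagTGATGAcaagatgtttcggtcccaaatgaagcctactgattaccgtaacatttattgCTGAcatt
Snord73a: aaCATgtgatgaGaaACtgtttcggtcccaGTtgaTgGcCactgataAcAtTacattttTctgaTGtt
Snord73a matched Rnu73b at 71.8% of aligned bases, and the longest run they share is 13 bases. Among 1529 annotated snoRNA and scaRNA names, 23.7% held TGATGA on the RNA strand with a CTGA after it, so the pair of motifs is a description of the class and not of U3.

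The annotation held further U3 sequences. A search with Rnu3a (blastn, at least 80% identity over at least 80% of its length) found 5 other names that are rows of the table. The 3 most abundant, Gm24826 (chr1:39519533-39519747, plus strand), Gm24949 (chr11:96032678-96032892, plus strand) and Gm23927 (chr19:4078298-4078512, minus strand, Rnu3b-ps1 in RefSeq), are shown because their annotated sequences share long stretches with Rnu3b. Capitals mark the bases that differ from Rnu3b1.
Gm24826: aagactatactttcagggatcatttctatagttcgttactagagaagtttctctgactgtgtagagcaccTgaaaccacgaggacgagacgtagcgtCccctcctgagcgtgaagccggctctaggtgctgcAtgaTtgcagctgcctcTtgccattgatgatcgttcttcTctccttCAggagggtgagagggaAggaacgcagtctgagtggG
Gm24949: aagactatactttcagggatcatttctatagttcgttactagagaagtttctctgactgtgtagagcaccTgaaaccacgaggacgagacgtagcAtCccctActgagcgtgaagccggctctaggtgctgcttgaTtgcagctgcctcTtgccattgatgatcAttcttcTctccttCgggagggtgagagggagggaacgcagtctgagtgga
Gm23927: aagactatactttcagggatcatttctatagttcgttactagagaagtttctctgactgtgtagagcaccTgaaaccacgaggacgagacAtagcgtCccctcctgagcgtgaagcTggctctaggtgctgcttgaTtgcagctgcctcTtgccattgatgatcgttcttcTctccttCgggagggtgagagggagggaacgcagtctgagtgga
These copies matched Rnu3b1 at 95.3%, 95.8% and 96.3% of bases, with 10, 9 and 8 substitutions. All 3 were identical to Rnu3b1 from base 1 to base 70 and carried C71T. They also shared T98C, C137T, C150T, C172T and T179C, and of these T98C and C137T were present in Rnu3a too. The other 2 copies, Gm25203 (chr12:102253473-102253687, minus strand) and Gm22865 (chr2:121004089-121004302, plus strand, in an intron of Tmem62), lie within annotated U3 pseudogenes in RefSeq and matched at 94.0% and 90.7%. Gm22865 has lost the TGATGA of box C through A162G. These 2 were named after their values were seen.

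**Figure D1:**
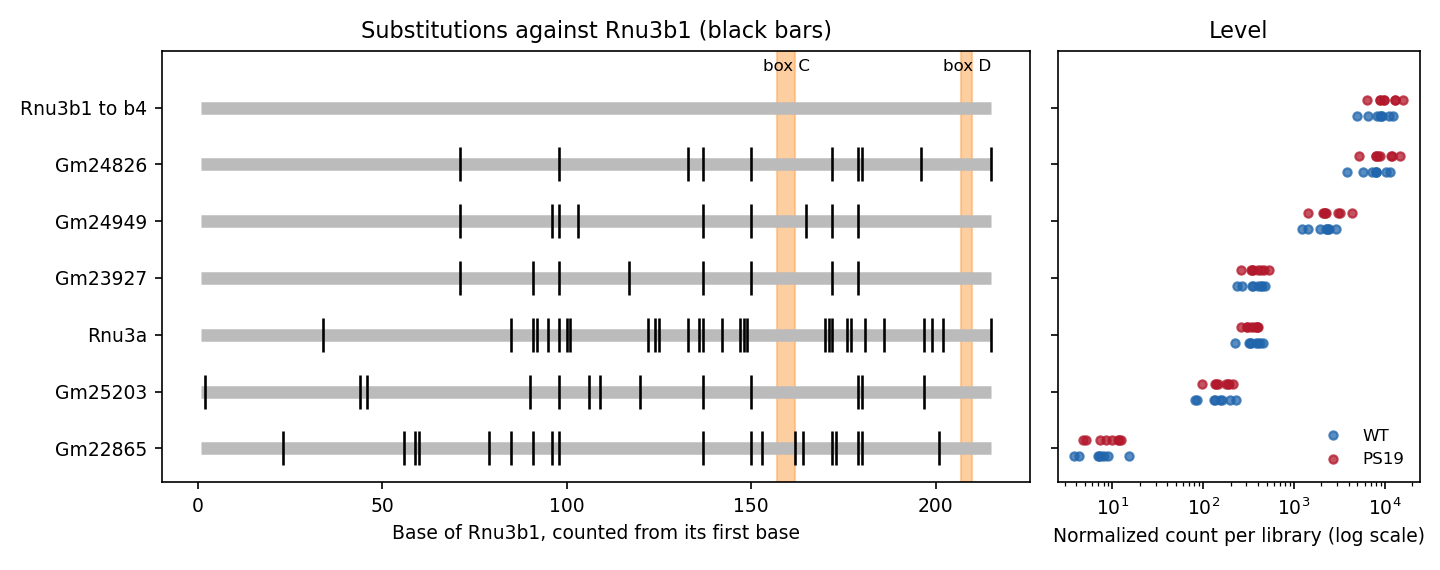
Left, substitutions (black bars) of Rnu3a and the 5 copies against Rnu3b1, by base of Rnu3b1 counted from its 5′ end, with box C and box D shaded. Right, the normalized count of each row in each of 16 libraries on a log scale, PS19 in red and WT in blue. The first 70 bases hold no bar in Gm24826, Gm24949 and Gm23927, and the mean level runs from 9779 for the Rnu3b row to 8.30 for Gm22865.

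The libraries held between 13.2 M and 23.1 M recovered reads, summed over all rows, so that a read listed under several rows enters these totals, and the RPM and snoRNA shares made from them, more than once. A normalized count is the number of reads divided by 1 size factor per library. Intervals and SEs given below come from limma, which pulls each row's spread between mice toward a trend fitted over all tested features. The codes of the libraries began with G in all 8 PS19 and in 2 WT mice, with F in 4 WT mice and with A in 2. The meaning of the letter is not given, and the letters F and A occur in WT alone, so that letter and genotype overlap in part and are separated only by the 2 WT libraries of letter G. Among the microRNA markers checked, those of neurons were the most abundant. The 4 neuronal markers, among them miR-124 and miR-9, summed to between 294008 and 1024823 per library and the 2 oligodendrocyte markers to between 13365 and 52332. The 3 myeloid markers summed to 2.83 to 15.7, the 2 red cell markers to 1.90 to 41.1, the liver marker miR-122 to 132 to 654 and the 3 muscle markers to 2253 to 14631. None of these lists had a marker at 0 in all libraries. The 3 myeloid markers and 1 of the 2 red cell markers fell below the mean of 5 and were not tested. Of the tested markers, 0 had an unadjusted p under 0.05 (limma). In bulk tissue, fewer cells of a type and less RNA per cell cannot be told apart.

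Among the rows named Rnu3, most of the signal lay in the Rnu3b row. The mean normalized count was 10719 ± 3089 in PS19 and 8839 ± 2383 in WT (SD, n = 8 each), and reads behind it numbered 6595 to 16372 per library. In PS19 replicates 1 to 8 the values were 12933, 9809, 16039, 13154, 8821, 8886, 9740 and 6369. In WT replicates 1 to 8 they were 12463, 9068, 11296, 9278, 8892, 6598, 4992 and 8125. The groups overlapped over most of their range. PS19 replicates 1, 3 and 4 lay above every WT library, WT replicate 7 lay below every PS19 library, and the WT median of 8980 was passed by 5 of 8 PS19 libraries.

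The Rnu3b difference, PS19 minus WT, was 0.28 on the log2(normalized count + 1) scale (SE 0.22, 95% interval -0.17 to 0.72), a fold of 1.21 with an interval of 0.887 to 1.65. It did not pass the test (limma, p = 0.215, adjusted p = 0.9998 over 6024 features), and a two-sided exact permutation test over 12870 assignments gave p = 0.208. The interval holds both no difference and a rise of 1.65-fold. Within the letter G, with 8 PS19 and 2 WT libraries, the difference was 0.17 (exact permutation test added after the data were seen, p = 0.60). Without WT replicate 7 it was 0.17, and without PS19 replicate 8, the lowest of its group, 0.38.

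The call for Rnu3b depended on the scaling together with the test. Scaled to all recovered reads of its library, as RPM, the row held 626 ± 106 in PS19 and 509 ± 84.5 in WT (SD, n = 8 each). The lowest, median and highest values were 485, 602 and 785 in PS19 and 330, 524 and 601 in WT, so that the ranges still overlapped. The log2 difference was then 0.30, and a two-sided exact permutation test, an alternative added after the data were seen, gave an unadjusted p = 0.0300, where limma gave p = 0.0916. In the same exact test on this scaling 3.32% of the 6024 features had p under 0.05, against 4.22% on the deposited scaling. With 1 library left out at a time, 11 of 16 of these exact tests gave p under 0.05 (p from 0.0109 to 0.0634). The 5 that did not were those without PS19 replicates 3, 4 or 7 or WT replicates 2 or 7. Scaled to the total of snoRNA reads the difference was 0.28 (exact permutation test, p = 0.273).

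**Figure D2:**
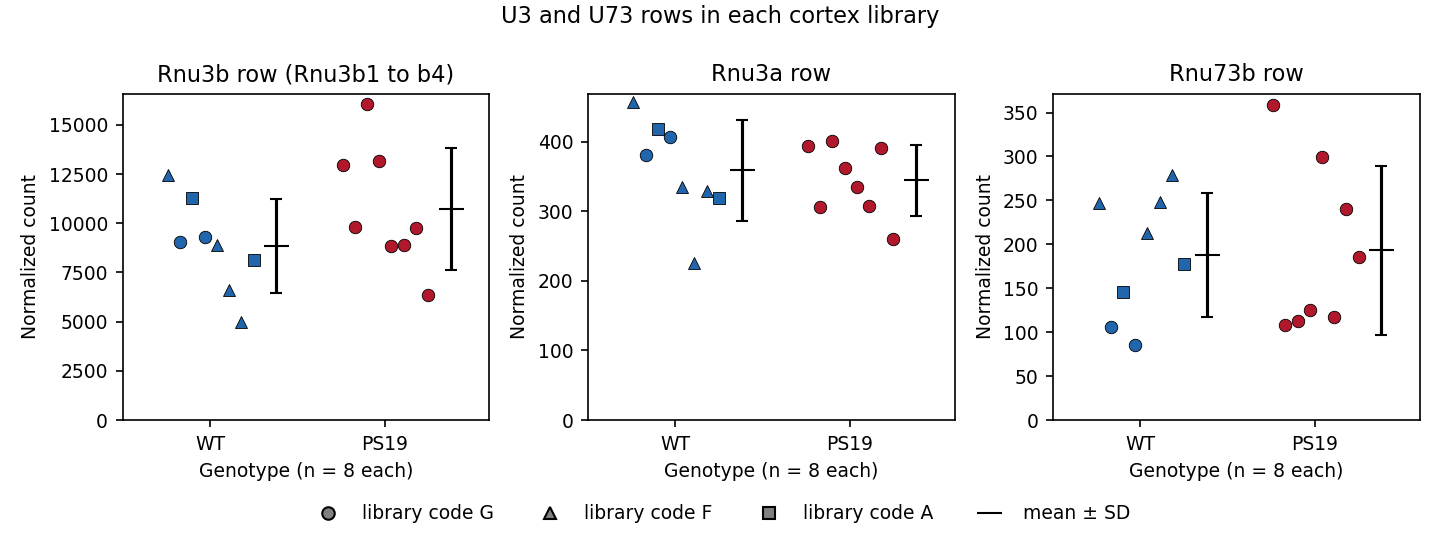
Normalized count of the Rnu3b, Rnu3a and Rnu73b rows in each of 8 WT (blue) and 8 PS19 (red) libraries, with the mean and SD beside each group and the marker shape giving the first letter of the library code. The genotypes overlap in all 3 rows, and the Rnu73b values of WT libraries separate by letter.

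Rnu3a was the minor U3 row. It averaged 344 ± 51.0 in PS19 and 359 ± 72.6 in WT (SD, n = 8 each), with 225 to 657 reads per library. The lowest, median and highest values were 260, 348 and 401 in PS19 and 225, 357 and 457 in WT, so that PS19 lay wholly inside the WT range. The difference was -0.05 on the log2 scale (SE 0.19, interval -0.44 to 0.35, limma p = 0.813, exact permutation p = 0.749). Within the letter G it was -0.21 (exact permutation p = 0.244). It varied less than the Rnu3b row, by 2.03-fold between the lowest and highest library against 3.21-fold.

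Per 100 bases of annotated length, the mean normalized count was 4548 for Rnu3b and 165 for Rnu3a. Rnu3b ranked 55th and Rnu3a 228th of 580 distinct snoRNA rows with a length. The 4 identical Rnu3b rows held equal whole reads, and the table does not say how many reads were unique to Rnu3b or Rnu3a. GENCODE M21 also lists Rnu3a, each Rnu3b gene, Gm24826, Gm23927 and Gm25203 as 2 entries that differ by 1 base in length. The part of these double entries in the levels was not tested.

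The ratio of Rnu3b to Rnu3a is a measure within each library that no scaling factor alters. Its lowest, median and highest values were 24.5, 30.5 and 40.0 in PS19 and 15.2, 26.0 and 29.3 in WT. The WT median ratio was passed in 6 of 8 PS19 libraries, and the highest WT ratio in 4 of 8. No test was made of this ratio, because it was formed from rows already compared. Summed over the distinct Rnu3 rows, the normalized count was 11063 ± 3131 in PS19 and 9198 ± 2442 in WT (SD, n = 8 each), a log2 difference of 0.26 that was also not tested, since one row makes up nearly all of the sum.

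Rnu73b, the methylation guide, was of similar mean level in both genotypes. Its mean was 193 ± 96.1 in PS19 and 188 ± 71.0 in WT (SD, n = 8 each), with 78 to 404 reads per library. PS19 replicates 1 to 8 held 358, 108, 113, 125, 299, 118, 240 and 185, and WT replicates 1 to 8 held 247, 106, 146, 85.5, 213, 248, 279 and 177. The PS19 values fell into 4 libraries at or below 125 and 4 at or above 185. The difference was -0.00012 on the log2 scale (SE 0.31, interval -0.64 to 0.64, limma p = 0.9997, exact permutation p = 0.9997), so that a change of up to 1.55-fold in either direction lies within the interval.

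Within WT, the Rnu73b row separated by the letter of the library code. The 2 letter G libraries held 85.5 and 106, the 2 letter A libraries 146 and 177, and the 4 letter F libraries 213 to 279, with no overlap. The 8 PS19 libraries, all of letter G, ranged from 108 to 358 and so lay above both WT libraries of that letter. Within the letter G the log2 difference was 0.87 (two-sided exact permutation test over 45 assignments, p = 0.111, and limma, p = 0.0826). With the letter as a term it was again 0.87 (limma, p = 0.0544, with no exact test). None passed 0.05, and only 2 WT libraries stand behind each. For the U3 rows, the WT libraries of different letters overlapped. In the letters G, F and A their means were 9173, 8236 and 9711 for Rnu3b, and 393, 336 and 369 for Rnu3a.

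The partner Snord73a held 76.3 ± 29.1 in PS19 and 65.0 ± 25.0 in WT (SD, n = 8 each), a log2 difference of 0.24 (exact permutation p = 0.433). The ratio of Rnu73b to Snord73a had lowest, median and highest values of 1.81, 2.57 and 3.18 in PS19 and 1.30, 3.45 and 4.02 in WT. All 8 PS19 libraries lay below the WT median ratio, inside the WT range. The 2 letter G libraries of WT had ratios of 1.76 and 3.40. The ratio was not tested between genotypes.

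With each distinct row counted once, 0 of 3 rows had an unadjusted p under 0.05, the kind of threshold the study used, in a fit where 4.0% of all 6024 tested features did (241 features, 1.86% higher and 2.14% lower in PS19). In DESeq2 on the recovered reads 4.70% and in edgeR 4.40% of features did, and again 0 of 3 of these rows. At an adjusted p under 0.05, limma and edgeR called 0 features and DESeq2 called 15, none of them U3 or U73.

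On the deposited scaling, the genotype differences of the 5 U3 copies lay within the spread between mice. The lowest, median and highest values of Gm24826 were 5229, 8721 and 14918 in PS19 and 3806, 8048 and 11320 in WT, and the log2 difference was 0.31 (SE 0.24, exact permutation p = 0.220). Gm24949 held 2599 ± 911 in PS19 and 2112 ± 551 in WT (SD, n = 8 each, log2 difference 0.28, exact permutation p = 0.252). Gm23927 held 391 ± 85.1 in PS19 and 371 ± 85.3 in WT (SD, n = 8 each, log2 difference 0.08, exact permutation p = 0.630). Over the 5 copies the differences ran from 0.08 to 0.31, all above 0, as were 2819 of all 6024 tested features. In limma 0 of 5 had p under 0.05, where 4.0% of all tested features did. On RPM, tested after the data were seen, Gm24826 held 562 ± 107 in PS19 and 449 ± 88.9 in WT (SD, n = 8 each), a log2 difference of 0.33 with an unadjusted p = 0.0426 in the exact permutation test, where 3.32% of all features had p under 0.05. The other 4 copies did not pass on that scaling (log2 difference 0.07 to 0.30, exact permutation p from 0.0668 to 0.492). None of this is separate evidence of a direction, because the copies can share reads with Rnu3b.

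The 2 most abundant copies tracked Rnu3b closely from library to library, and the others less so. Gm24826 amounted to 82.1% to 93.0% of the Rnu3b value in PS19 libraries and 76.2% to 90.8% in WT. Across the 16 libraries its log2 value had a Pearson r of 0.997 with Rnu3b (Spearman rho 0.997), which remained at 0.996 without the 2 libraries farthest from the Rnu3b median. Gm24949 followed with r = 0.978 (rho 0.918, and 0.964 without those 2). Gm23927 had r = 0.838 with Rnu3b and 0.843 with Rnu3a. In RPM the values of these 3 copies against Rnu3b were 0.99, 0.957 and 0.610. Gm25203 had r = 0.809 with Rnu3b (rho 0.674, and 0.723 without those 2). Gm22865, the copy with 4 to 15 reads per library, had r = 0.423 (rho 0.294, and 0.148 without those 2). These are descriptions over libraries that share a size factor and rows that can share reads.

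**Figure D3:**
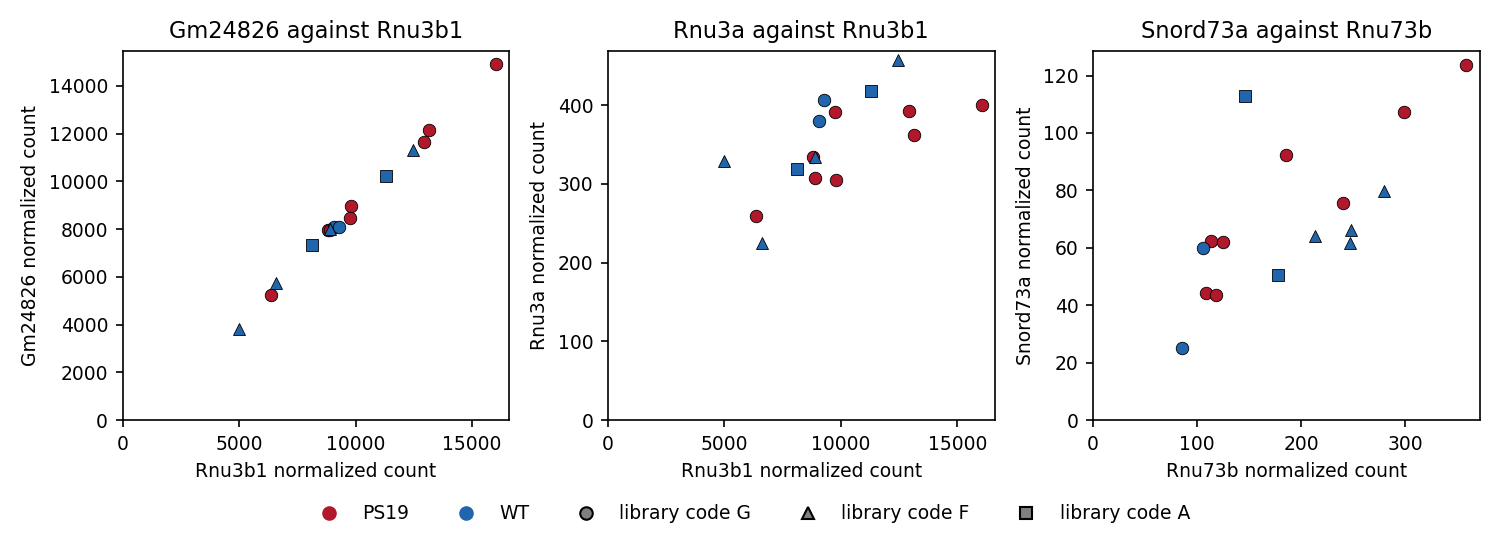
Each point is 1 of 16 libraries (PS19 red, WT blue, marker shape by library code letter) and both axes are normalized counts. Gm24826 follows Rnu3b nearly in proportion (r = 0.997), Rnu3a follows it less closely (r = 0.68), and Rnu73b and its partner Snord73a vary together (r = 0.70).

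Rnu3a had r = 0.68 with Rnu3b on the log2 scale (rho 0.70) and 0.27 in RPM. Rnu73b had r = -0.26 with Rnu3b (rho -0.27) and -0.13 with Rnu3a (rho -0.09), which changed with the libraries left out. Without the 2 libraries farthest from the median of the U3 row they came to 0.02 and 0.04, and without the 2 farthest from the Rnu73b median to -0.49 and -0.15. With Snord73a it had r = 0.70 (rho 0.73, and 0.51 without the 2 farthest libraries).

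Of 5722 distinct features with a mean of at least 5, the 5 most like Rnu3b over the 16 libraries were Gm24826 and Gm24949, then mmu-mir-5099 (r = 0.936, rho 0.915), mmu-miR-210-3p (r = 0.935, rho 0.947), a microRNA known to rise in low oxygen, and Snord91a (r = 0.925, rho 0.838), a box C/D snoRNA. In RPM the last 3 fell to r between 0.802 and 0.837. The 5 most like Rnu73b were all snoRNA rows, namely Snord12 (r = 0.901), Snord38a (r = 0.894), Gm26224 (r = 0.890), Snord80 (r = 0.889) and Snord21 (r = 0.874), with rho from 0.841 to 0.906, and in RPM their r lay between 0.906 and 0.929. No U3 copy was among them.

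The U3 and U73 rows also moved in opposite ways with the share of reads that fell on snoRNAs, which ranged from 10.3% to 23.5% of a library. Against the log2 of that share, r was -0.66 for Rnu3b (rho -0.71), -0.63 for Rnu3a (rho -0.51) and 0.61 for Rnu73b (rho 0.63) over the 16 libraries, and without the 2 libraries farthest from the median share it was -0.66, -0.73 and 0.65. Rnu3b had r = 0.68 with the log2 of the normalized count that 1 read was worth in a library, which is the inverse of its size factor (rho 0.64, and 0.82 without the 2 farthest), and r = -0.13 with the number of reads. The part of library makeup in the values of these rows was not tested. The share itself was 15.5% ± 4.23 in PS19 and 15.1% ± 3.34 in WT (SD, n = 8 each).

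Other RNAs linked to the maturation of the rRNA precursor were read beside U3. The list held U8 (Snord118), which acts on the large-subunit precursor, U13 (Snord13), U14 (Snord14a, c, d and e), U22 (Snord22), E2 (Snora62) and U17 (Snora73a and b), 10 rows of which 9 were tested. None of the 9 had p under 0.05 (limma, p from 0.0808 to 0.973), 4 of 9 differences were above 0, and their median was -0.08. Over 399 distinct tested snoRNA rows the median was also -0.08, 152 differences were above 0, and 18 had p under 0.05.

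The 3 most abundant members were U8 and 2 of the U14 rows. Snord118 held 2280 ± 887 in PS19 and 1887 ± 548 in WT (SD, n = 8 each), a log2 difference of 0.24 (SE 0.24, exact permutation p = 0.334). Snord14c had lowest, median and highest values of 553, 722.4 and 1489 in PS19 and 332, 528 and 2858 in WT. All 8 PS19 libraries lay above the WT median, yet the WT mean was the higher, and the log2 difference was -0.13 (SE 0.42, exact permutation p = 0.784). Snord14d, which also had all 8 PS19 libraries above the WT median, held 708 ± 306 and 1129 ± 1053 (SD, n = 8 each, log2 difference -0.19, exact permutation p = 0.707). The lowest p was that of Snord14e, named for that reason after its values were seen, at 9.50 ± 5.19 in PS19 and 15.7 ± 6.05 in WT (SD, n = 8 each, log2 difference -0.75, limma p = 0.0808, exact permutation p = 0.124).

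**Figure D4:**
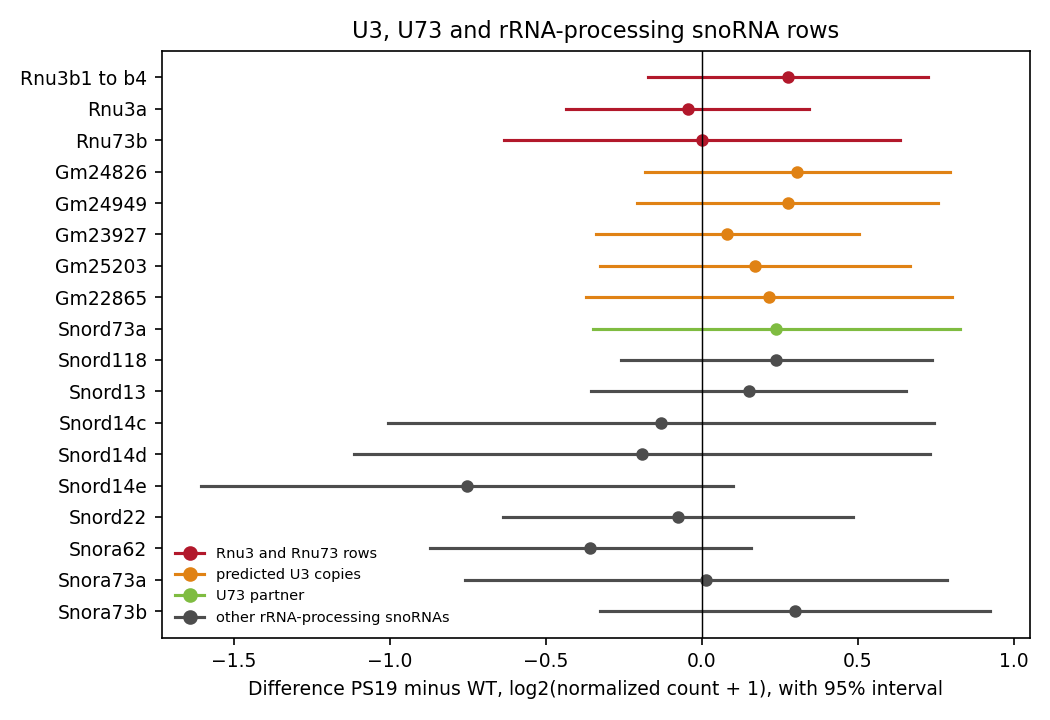
Difference PS19 minus WT on the log2(normalized count + 1) scale with its 95% interval from limma (n = 8 per group) for the U3 and U73 rows, the U3 copies, Snord73a and the 9 tested rRNA-processing snoRNAs. Every interval includes 0.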

How the data were processed

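Small RNA libraries were made from the prefrontal cortex of 16 mice. The authors aligned reads to mm10 with STAR 2.5.3a inside COMPSRA and deposited normalized counts, namely reads divided by 1 DESeq2 (1.42.1) size factor per library, here treated as a signal. How reads that fit several copies were assigned is not given in the sources used here. All deposited values were whole multiples (within 1e-06) of 1 read per library, which gave back whole reads, with weaker evidence in WT replicates 4 and 6. The deposited columns of the authors' own comparison (mean signal, log2 fold change with its error, Wald score and p-values) were not used, and 0 columns of values per library were left out.

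Genotypes were compared on log2(value + 1), with limma 3.58.1 in R 4.3.3 (lmFit, eBayes with trend), over 6024 features with a mean of at least 5, adjusted by Benjamini-Hochberg. This understates changes of low features. Single rows were also compared by two-sided exact permutation tests in Python 3.11.15. On simulated counts with 200 changed features of 6024, limma recovered 80% of the 2-unit and 27% of the 1-unit log2 changes. Alternatives were DESeq2 1.42.0 and edgeR 4.0.16 on recovered reads, other scalings, filters and pseudocounts, the replicate number as a block, the letter of the library code, identical rows counted once, and each library left out. Exact tests under those scalings, within the letter G and with libraries left out, and of the U3 copies on the library total (RPM), were added after the data were seen. Sequences and positions are from GENCODE M21 and RefSeq (GRCm38). The members and lists were chosen with earlier results of these data known. Named were all Rnu3 and Rnu73 rows, the 3 most abundant copies and rRNA-processing snoRNAs, those of the latter with p under 0.05, and the 5 features most like Rnu3b and Rnu73b. Each library is a separate mouse. Precision rests on 8 mice per group.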

Additional observations from a re-analysis of the deposited data

Results flagged for a closer look

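Of 62 groups of 8 libraries examined, 7 held a library whose gap to the nearest other exceeded Dixon's limit for 8 samples as a share of the group's range, where chance gives about 1 in 20, or 3.1. WT replicate 7 stood apart in both ratios within U3. Its Rnu3b value was 15.2 times its Rnu3a value, against 22.8 in the next lowest WT library, and its Gm24826 value was 76.2% of its Rnu3b value, against 87.0%. This library also had the lowest Rnu3b value of all 16. WT replicate 4 had the highest Gm22865 value of its group, at 15.1 against 8.97, a row that rested on 4 to 15 reads per library.

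Among the other rRNA-processing snoRNAs, PS19 replicate 3, which also had the highest Rnu3b value, was the highest of its group for Snord14c at 1489 (next 935) and Snord14d at 1373 (next 861). WT replicate 8 was the highest for Snora73a at 19.6 (next 8.91), and WT replicate 2 for Snord14a at 9.51 (next 4.46).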

How the results depend on the processing

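The Rnu3b difference of 0.28 kept its direction and its side of the 0.05 threshold in all 28 alternatives of the limma comparison (0.17 to 0.38). In the exact permutation test it passed the threshold on RPM (0.30), where leaving out a library gave 0.21 to 0.35 and lost the call in 5 of 16. Rnu3a turned to 0.0108 without PS19 replicate 8 and to 0.0090 without WT replicate 1 (leave-one-out -0.14 to 0.0108, and -0.0900 to 0.0301 on RPM), was -0.21 within the letter G and with the letter as a term, and was never called. Rnu73b, at -0.00012, has no stable sign. It came to 0.0407 in DESeq2, 0.0664 in edgeR, 0.0239 scaled to the library total (0.0245 as RPM in the exact test), 0.0063 scaled to the snoRNA total, 0.00012 with a pseudocount of 5, 0.87 within the letter G and with the letter as a term, and -0.15 to 0.0975 with a library left out (-0.10 to 0.142 on RPM). The summed Rnu3 difference of 0.26 ranged from 0.16 to 0.36.

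With the replicate block, Rnu3b stayed at 0.28 (limma, adjusted p = 0.796) and 0 of 3 rows were called. Same-numbered libraries correlated at 0.0446 to 0.456, over 0.1 in 6 of 8 pairs, and 2 of 8 PS19 libraries correlated best with their own number, so the numbers were not read as pairs. Of all features, 241 at an unadjusted p under 0.05 became 419 with the block, 121 within the letter G, 124 with the letter as a term, 136 with a mean of at least 20, 680 without the filter, and 171 to 321 with a library left out. DESeq2 called 15 at an adjusted p. The rRNA-processing count of 0 became 1 with the letter as a term (Snord13) and 0 to 1 with a library left out, namely Snora62 without PS19 replicate 5, and Snord14e without PS19 replicate 7 or 8 or WT replicate 4. The cause was not tested.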
